A study of Mus musculus with 12 samples.

Results

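Ythdf2 knockout cells were compared with wild-type cells of GC1, an established mouse line of spermatogonia that was immortalised with the large T antigen of a simian virus, a protein that binds p53 and RB. The comparison used 6 of the 12 libraries of the series, all labelled 24 h: 3 of the knockout, which carries the line code YC5, and 3 of wild-type GC1. The other 6 libraries are YC5 cells with an overexpression control (OE-CTR) and YC5 cells overexpressing Setdb1, 3 each. They entered the fit so that all groups shared 1 estimate of the spread, and their values are given beside some results. The labels name 1 knockout line, so the deletion of Ythdf2 and any other difference between that line and GC1 cannot be told apart. The labels do not say whether the 3 libraries of a group came from separate cultures, and p-values then measure the spread between these libraries, which may be technical.

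YTHDF2 is a reader of N6-methyladenosine (m6A), the methyl mark that the METTL3 writer complex places within messenger RNA. It binds marked transcripts in the cytoplasm and recruits the CCR4-NOT deadenylase, which shortens the poly(A) tail and starts decay. In the mouse it is known for its role in germ cells of both sexes. The title of the series places the knockout in the setting of DNA damage repair and of SETDB1, a methyltransferase of histone H3 lysine 9.

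The Ythdf2 transcript was lower in the knockout and not lost. It had 5.79, 6.07 and 6.28 FPKM (sequenced fragments scaled to transcript length and to the library's mapped fragments) in knockout libraries 1 to 3, against 8.51, 9.33 and 9.15 FPKM in wild-type libraries 1 to 3. All knockout values lay below all wild-type values. The log2 fold change was -0.50 (SE 0.05, adjusted p = 8.75e-06), a change of the mean of -32.8%. The mean was 6.14 ± 0.103 FPKM in OE-CTR cells and 4.63 ± 0.383 FPKM in Setdb1-overexpressing cells (SD, n = 3 each). The edited position was not stated, and the protein was not measured.

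The deposited table holds 2281 genes that the submitters preselected, and 2063 of them reached 1 FPKM in at least 3 of the 12 libraries and were tested. With limma on log2(FPKM + 1) and Benjamini-Hochberg adjustment over these genes, 779 rose (37.8%) and 815 fell (39.5%) in the knockout, 77.3% in all. These percentages are the background for every count below, and they describe the preselected set and not the transcriptome. The knockout and wild-type libraries did not overlap for 760 of the genes that rose and 791 of those that fell. Over all tested genes, 1648 (79.9%) had groups that did not overlap. The choice of genes named below favoured such genes, so a lack of overlap in them is description only. Most changes were small, 0.30 on the log2 scale in the median of called genes regardless of sign, and the median over all tested genes was -0.01. A signed value in parentheses after a gene is its log2 fold change in this fit. Among called genes, 10 were higher and 36 lower by at least 1 on the log2 scale.

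Knockout libraries 1 and 2 and wild-type libraries 2 and 3 carried transcripts of blood cells. The 5 red cell markers in the table summed to 602, 180.0 and 0.123 FPKM in knockout libraries 1 to 3, against 5.2, 514 and 205 FPKM in wild-type libraries 1 to 3. The 2 neutrophil markers, S100a8 and S100a9, summed to 26.5, 31.5 and 0.564 FPKM in knockout libraries, against 1.54, 24.7 and 36 FPKM in wild-type libraries. Of the 4 tested red cell markers, the 2 neutrophil and the 3 platelet markers, 0 were called by limma, and the lowest unadjusted p was 0.588 (Itga2b, a platelet integrin chain). Wild-type library 1 held more red cell transcript than knockout library 3, so a fit without the 4 libraries with blood transcripts is not balanced for blood. In that fit the 4 tested red cell markers had a median log2 fold change of -1.2. Transcript GC content also moved with the comparison: the 516 genes lowest in GC had a median log2 fold change of -0.12, and the 516 highest in GC had 0.18. Its part in the results was not tested beyond the fit with that trend removed, in which 777 genes rose and 755 fell.

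**Figure D1:**
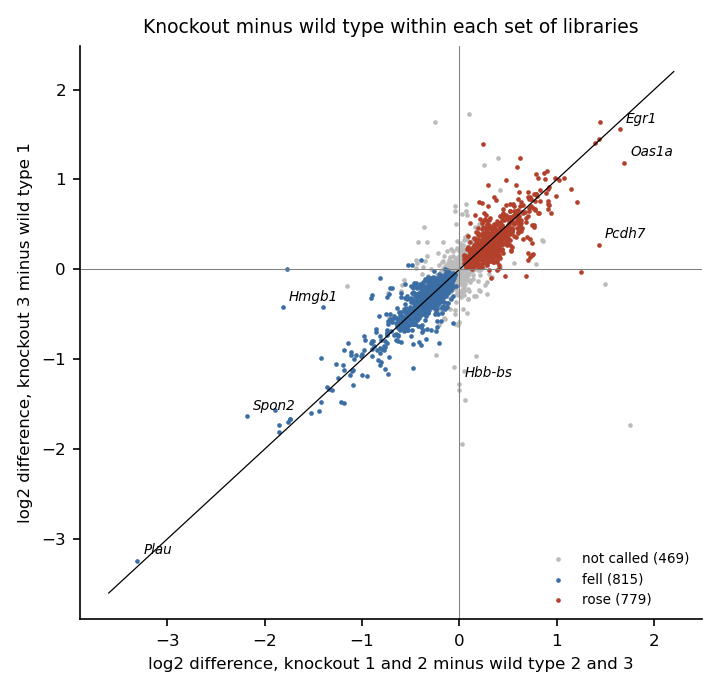
Log2 difference of each of the 2063 tested genes, knockout library 3 minus wild-type library 1 (vertical axis) against the mean of knockout libraries 1 and 2 minus the mean of wild-type libraries 2 and 3 (horizontal axis), on the log2(FPKM + 1) scale. Points are genes, coloured by the limma call, and the diagonal marks equal differences. Plau stands at -3.24 and -3.31, while Hmgb1 (-0.42 and -1.81) and Pcdh7 (0.28 and 1.43) lie off the diagonal.

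A few large changes rested on uneven libraries. Hmgb1, a chromatin-bound high mobility group protein, had 1.19, 1.07 and 1.31 FPKM in knockout libraries, against 2.1, 6.28 and 6.71 FPKM in wild-type libraries. Wild-type library 1 alone came near the knockout. Pcdh7, a protocadherin, had 12.4, 11.9 and 12.6 FPKM in knockout libraries, against 10.2, 3.45 and 4.37 FPKM in wild-type libraries, and here wild-type library 1 again lay near the knockout. The call of Pcdh7 was lost when any 1 of knockout libraries 1, 2 and 3 or wild-type libraries 2 and 3 was left out (adjusted p = 0.0659 to 0.127).

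The largest fall on the log2 scale was in Plau, which encodes urokinase, the protease that turns plasminogen into plasmin at the cell surface. It had 0.0448, 0.208 and 0.209 FPKM in knockout libraries, against 10.4, 10.1 and 10.2 FPKM in wild-type libraries (log2 fold change -3.29, SE 0.08, adjusted p = 9.54e-10). Its mean was 0.188 ± 0.13 FPKM in OE-CTR cells and 0.15 ± 0.0594 FPKM in Setdb1-overexpressing cells, so it was low in all 9 libraries of the YC5 line. Plau is 1 of 19 tested genes that reached 1 FPKM in the 3 wild-type libraries and in no other library, and such genes could pass the filter only by being high in wild type. Spon2, a secreted matrix protein of the spondin family, had 1.16, 1.55 and 1.8 FPKM in knockout libraries, against 7.65, 7.68 and 12.1 FPKM in wild-type libraries. Wild-type library 3 stood above the other wild-type libraries, and the groups did not overlap.

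Of the pericellular protease, inhibitor and matrix genes, 27 were tested, 14 rose and 10 fell, with a median log2 fold change of 0.10. The nidogens, which link laminin to collagen IV in basement membranes, moved apart. Nid1 had 0.404, 0.389 and 0.342 FPKM in knockout libraries, against 2.74, 2.66 and 2.79 FPKM in wild-type libraries. Nid2 had 2.55, 2.32 and 2.54 FPKM in knockout libraries, against 1.02, 0.967 and 0.987 FPKM in wild-type libraries. Neither nidogen overlapped between the groups, and Nid1 is another of the 19 genes at 1 FPKM only in wild type. Nid2 reached 1 FPKM in wild-type library 1 alone of its group, so it could pass the filter only with libraries of the YC5 line. Lamb3, a laminin chain of epithelial basement membranes, fell (-0.80). The members of the list that rose include Col12a1, a collagen of dense connective tissue, at 5.5 ± 0.0979 FPKM in knockout cells, against 2.44 ± 0.0261 FPKM in wild-type cells (SD, n = 3 each), and thrombospondin Thbs1 (0.80), agrin Agrn (0.52) and fibronectin Fn1 (0.42). Among protease inhibitors Timp1 fell (-0.30) and Timp2 rose (0.28).

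All 5 tested epithelial markers fell, with a median log2 fold change of -1.30. Of the 17 markers listed, 8 were in the table, and Esrp1, Ovol1 and Grhl2 were below the filter. Krt8, a keratin of simple epithelia, had 1.26, 1.35 and 1.41 FPKM in knockout libraries, against 6.68, 6.56 and 6.83 FPKM in wild-type libraries. Krt19, the most abundant keratin of the table, had 273, 279 and 271 FPKM in knockout libraries, against 683, 702 and 692 FPKM in wild-type libraries. Elf3, an epithelial transcription factor, had 1.18, 0.867 and 0.714 FPKM in knockout libraries, against 3.77, 3.74 and 3.63 FPKM in wild-type libraries. Krt14 and Krt6a, keratins of stratified epithelia, also fell (-1.03 and -1.09). In bulk RNA, fewer cells of a type and less RNA per cell cannot be told apart. Krt6a and Krt8 stood at 5.17 ± 0.241 and 2.42 ± 0.242 FPKM in Setdb1-overexpressing cells, and at 1.3 ± 0.0289 and 1.35 ± 0.111 FPKM in OE-CTR cells.

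**Figure D2:**
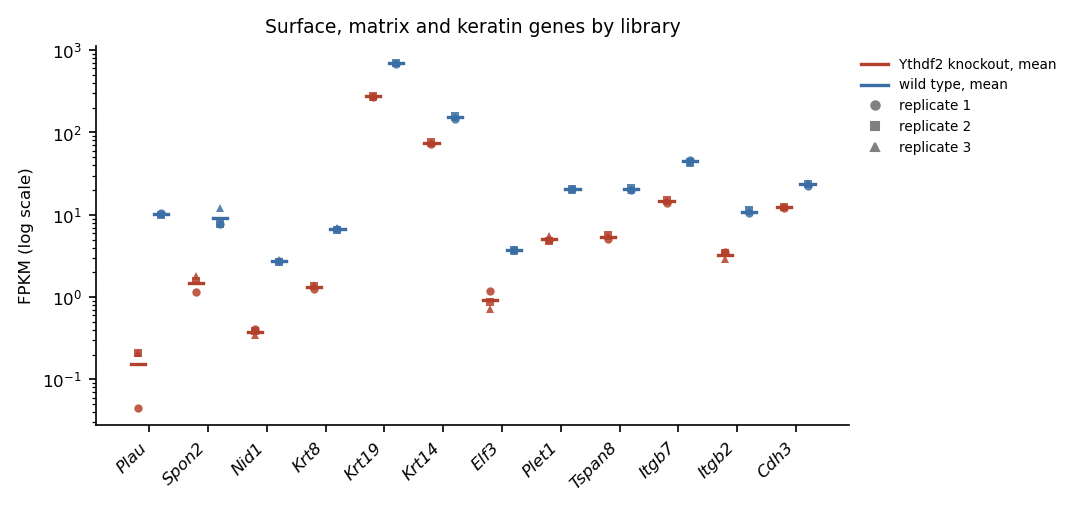
FPKM on a log axis of 12 genes in the 3 knockout (left of each pair) and 3 wild-type libraries (right). They are genes of the cell surface, the matrix and keratin filaments, and the epithelial transcription factor Elf3. Symbols mark the replicate and the bar the mean. For all 12 genes the 3 knockout libraries lie below the 3 wild-type libraries, from Plau at 0.154 ± 0.0945 against 10.2 ± 0.186 FPKM to Cdh3 at 12.4 ± 0.233 against 23.5 ± 0.86 FPKM. The choice of genes favoured large changes with groups that do not overlap, so this separation is not a separate result.

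Of 24 integrin, cadherin and junction genes, 13 were lower and 6 higher, the median being -0.23. The falls included the GPI-anchored surface protein Plet1, at 4.88, 4.81 and 5.55 FPKM in knockout libraries, against 20.7, 20.4 and 19.8 FPKM in wild-type libraries. The tetraspanin Tspan8 was at 5.14, 5.69 and 5.49 FPKM in knockout libraries, against 20.1, 21.4 and 20.1 FPKM in wild-type libraries. Both integrin beta chains best known from leukocytes fell, Itgb7 to 14.5 ± 0.574 FPKM in knockout cells, against 44.5 ± 1.81 FPKM in wild-type cells. Itgb2 fell to 3.28 ± 0.346 FPKM in knockout cells, against 10.9 ± 0.383 FPKM in wild-type cells. Of the 2 leukocyte markers in the table, Ptprc was below 1 FPKM in all 6 of these libraries, and the macrophage marker Cd68 had 109, 105 and 112 FPKM in knockout libraries, against 88.9, 92 and 97 FPKM in wild-type libraries. The log2 difference of Itgb2 was -1.57 between knockout library 3 and wild-type library 1, and -1.44 between the libraries with blood transcripts. P-cadherin Cdh3 (-0.87), the desmosomal plaque gene Pkp1 (-1.06) and the laminin-binding integrin chains Itga3 and Itga6 (-0.45 and -0.36) fell. The tight junction protein gene F11r (0.66) and the laminin-binding chain Itga7 (0.40) rose. Of 25 focal adhesion and actin genes, 14 rose and 4 fell (median 0.18), and without the 4 libraries with blood transcripts 13 rose and the calls of the falls were lost. Among them talin Tln1 (0.43), integrin-linked kinase Ilk (0.50), the adaptor Bcar1 (0.54) and tensin Tns1 (0.57) rose.

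Most genes of the 3 cell cycle lists were lower in the knockout. Of 36 tested genes of replication licensing, polymerases and nucleotide supply, 33 fell and 1 rose (median -0.29). Of 63 kinetochore, spindle and cytokinesis genes, 50 fell and 5 rose (median -0.28). Of 34 cyclin, CDK and RB/E2F genes, 22 fell and 6 rose (median -0.26). Beside these, 39.5% of all tested genes fell. When the 4 libraries with blood transcripts were left out, which leaves 1 library in each arm, 25 replication genes fell, 37 mitotic genes fell and 2 rose, and 17 cyclin and E2F genes fell and 2 rose. The submitters' own term cell division, set on 196 tested genes, had 115 that fell and 47 that rose. The mitotic list had a median transcript GC of 46.4%, against 50.4% over the tested genes, and with the GC trend removed 44 of its 63 genes fell and 5 rose.

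Licensing starts with CDC6 and CDT1, which load the MCM helicase onto origins. Cdc6 had 5.22, 5.05 and 5.62 FPKM in knockout libraries, against 9.1, 9.56 and 8.9 FPKM in wild-type libraries. Of the helicase subunits, Mcm3 had 52.4, 51.1 and 53.7 FPKM in knockout libraries, against 79.7, 81.5 and 90.2 FPKM in wild-type libraries, and no library of one group reached the other. Mcm2, Mcm4, Mcm5, Mcm6 and Mcm7 fell by less (-0.11, -0.44, -0.32, -0.24 and -0.24). Cdt1 (-0.37) and its inhibitor geminin, Gmnn (-0.70), both fell, as did Cdc45 (-0.56), which activates the loaded helicase. Nucleotide supply followed, with thymidylate synthase Tyms at 9.02 ± 0.334 FPKM in knockout cells, against 14 ± 1.75 FPKM in wild-type cells. The ribonucleotide reductase subunit Rrm2 fell (-0.23). Chromatin assembly factor subunit Chaf1a fell (-0.45), while its partner Chaf1b had 25.2 ± 1.18 FPKM in knockout cells and 24.5 ± 0.596 FPKM in wild-type cells and did not pass the test. Topoisomerase Top1 was the 1 member of this list that rose (0.09, adjusted p = 0.0441), and the call was lost without knockout library 1, wild-type library 1 or wild-type library 3 (adjusted p = 0.17, 0.165 and 0.0687).

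Entry into mitosis depends on CDK1 with cyclin B. Cdk1 had 12.7, 15.8 and 14.8 FPKM in knockout libraries, against 24.5, 23.6 and 23.6 FPKM in wild-type libraries. Ccnb1 (-0.46), Ccnb2 (-0.39), Ccna2 (-0.28), the CDK-binding Cks2 (-0.68) and Cks1b (-0.50), and the activating phosphatase Cdc25b (-0.42) fell, and so did the inhibitory kinase Pkmyt1 (-0.55). The spindle motor Kif11 had 11.7, 12 and 12.6 FPKM in knockout libraries, against 18.8, 19.5 and 19.4 FPKM in wild-type libraries. The kinetochore subunits Ndc80 and Spc24 (-0.61 and -0.52), the chromosomal passenger genes Birc5 and Incenp (-0.51 and -0.50), the cohesin protector Sgo1 (-0.47) and the cytokinesis scaffold Anln (-0.66) fell. Aurka fell by more than Plk1 and Aurkb (-0.39, -0.13 and -0.24), a difference between the genes that was not tested. The 5 mitotic genes that rose were Anapc2 (0.38) and Anapc1 (0.16), subunits of the anaphase-promoting complex, the spindle pole gene Numa1 (0.23), the cohesin loader Mau2 (0.17) and Cenpf (0.15). The call of Mau2 was lost in 5 of the 6 omissions of 1 library, all but that of wild-type library 2, with adjusted p = 0.0552 to 0.143. Among G1 regulators E2f1 rose to 26.6 ± 0.787 FPKM in knockout cells, against 22 ± 0.361 FPKM in wild-type cells, and D-type cyclins differed: Ccnd3 rose (0.67), Ccnd2 rose by less (0.18) and Ccnd1 fell slightly (-0.08). The CDK inhibitor gene Cdkn1a had 104, 108 and 107 FPKM in knockout libraries, against 102, 100.5 and 101 FPKM in wild-type libraries, a small rise (0.07). That call was lost without the 4 libraries with blood transcripts (adjusted p = 0.176) and with the GC trend removed (adjusted p = 0.276).

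Promoter letters of these genes are shown because cell cycle genes are known to carry 2 kinds of element, E2F sites in genes of the G1/S transition and the cell cycle homology region (CHR) in genes of G2 and mitosis. Sequences are from RefSeq, build GRCm38.p6, 150 bases up to the base before the annotated start, 5′ to 3′ on the gene's strand, with the motif match in capitals. For the CHR, TTTGAA or TTTAAA on either strand, the 3 mitotic genes with the largest falls and a match in this stretch were Kif11 (chr19:37376232-37376381, plus strand), Cdca5 (chr19:6084947-6085096, plus strand) and Ncapg2 (chr12:116405286-116405435, plus strand).
Kif11: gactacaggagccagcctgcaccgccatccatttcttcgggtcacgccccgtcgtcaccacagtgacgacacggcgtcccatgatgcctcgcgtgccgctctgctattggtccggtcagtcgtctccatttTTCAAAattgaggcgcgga
Cdca5: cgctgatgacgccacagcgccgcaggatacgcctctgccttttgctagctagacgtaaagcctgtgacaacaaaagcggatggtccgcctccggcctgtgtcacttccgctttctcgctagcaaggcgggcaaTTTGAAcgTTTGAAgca
Ncapg2: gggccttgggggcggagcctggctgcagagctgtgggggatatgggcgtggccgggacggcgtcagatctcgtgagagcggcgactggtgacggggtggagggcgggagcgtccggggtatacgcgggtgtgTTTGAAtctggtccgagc
Between the match and the start lie 13 bases in Kif11, 12 in Ncapg2 and, for the nearer of 2 matches, 3 in Cdca5. Over the window of 250 bases before to 50 after the start, 31 of the 43 mitotic genes that fell and have a window held a CHR (72.1%), against 23.5% of the 1652 tested genes with a window and 27.6% of all 32851 windows. Of the 5 mitotic genes that rose, 1 held it (Cenpf), and of the 7 with a window that were not called, 4 did. A CCAAT box, which often stands with the CHR, was in 53.5% of those 43, against 43.9% of tested genes and 37.4% of all windows, and in 5 of the 7 mitotic genes with a window that were not called (71.4%). These counts describe letters in a window and not bound sites. For each motif shown, here and below, a gene was counted if any of its windows held a match. The share of all windows counts each window alone, so it is not a like measure, and the share of tested genes is.

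For the E2F site, TTTCCCGC or TTTGGCGC on either strand, the corresponding genes of the replication list were Cdc6 (chr11:98908001-98908150, plus strand), Mcm5 (chr8:75109359-75109508, plus strand) and Mcm6 (chr1:128359706-128359855, minus strand).
Cdc6: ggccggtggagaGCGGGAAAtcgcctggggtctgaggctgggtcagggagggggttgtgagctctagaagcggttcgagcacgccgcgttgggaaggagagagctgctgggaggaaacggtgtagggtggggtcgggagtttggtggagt
Mcm5: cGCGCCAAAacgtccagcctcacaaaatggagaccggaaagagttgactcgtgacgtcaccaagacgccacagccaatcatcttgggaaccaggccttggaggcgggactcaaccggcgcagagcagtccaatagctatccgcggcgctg
Mcm6: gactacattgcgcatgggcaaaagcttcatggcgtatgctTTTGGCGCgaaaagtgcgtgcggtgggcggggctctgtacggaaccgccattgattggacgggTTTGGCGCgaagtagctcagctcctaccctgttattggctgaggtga
Mcm6 holds 2 copies in this stretch and Cdc6 and Mcm5 hold 1 each. In the longer window, 7 of the 30 replication genes that fell and have a window held a match (23.3%), against 4.7% of tested genes and 1.6% of all windows. They include the helicase subunit genes Mcm3, Mcm5, Mcm6 and Mcm7, and Atad5, which unloads the sliding clamp PCNA.

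DNA repair genes, the setting that the title names, were counted by pathway. In homologous recombination and crosslink repair, 14 of 25 tested genes fell and 5 rose (median -0.21). Brca1 and its partner Bard1 fell (-0.45 and -0.50), and the nuclease Mre11a fell (-0.36). Sfr1, a subunit of a complex that acts in strand exchange, had 52.5, 49.1 and 53.4 FPKM in knockout libraries, against 79, 85.4 and 81.9 FPKM in wild-type libraries, with no overlap. Fancd2 of the crosslink pathway fell (-0.41). The rises included the endonuclease Mus81 (0.44), the helicase Recql5 (0.41), Babam1 (0.22) and Fan1 (0.17). Rad52 and Fanca stood at 1.97 ± 0.165 and 3.69 ± 0.0472 FPKM in knockout cells, against 1.97 ± 0.195 and 3.69 ± 0.165 FPKM in wild-type cells, and did not pass. This list had a median transcript GC of 46.2%, and 11 of its 25 genes fell with the GC trend removed.

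Of 10 end joining genes, 3 rose and 3 fell (median -0.07). Parp3, a poly(ADP-ribose) polymerase active at double-strand breaks, had 11.6, 11 and 11.7 FPKM in knockout libraries, against 6.4, 7.02 and 7.21 FPKM in wild-type libraries. Cyren (0.44), an inhibitor of classical end joining, also rose. The Ku subunit Xrcc6 (-0.19), the shieldin subunit Mad2l2 (-0.22) and Aplf (-0.33) fell, and the DNA-dependent kinase Prkdc was at 3.97 ± 0.14 FPKM in knockout cells, against 4.2 ± 0.0249 FPKM in wild-type cells, and did not pass. Of 16 excision and mismatch repair genes, 8 rose and 5 fell. With 1 library in each arm, without the 4 libraries with blood transcripts, 5 rose and 4 fell. The nucleotide excision genes Xpa (0.30), Ercc3 (0.22) and Xpc (0.14) rose, and so did the direct reversal genes Mgmt (0.30) and Alkbh3 (0.32). The uracil and thymine glycosylases Ung (-0.24) and Tdg (-0.43) and the mismatch gene Msh6 (-0.13) fell.

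In damage signalling, 11 of 17 genes fell and 4 rose (median -0.14), and without the 4 libraries with blood transcripts 4 fell and 3 rose. The largest change was in Eya2, a phosphatase of the Eyes absent family whose members act on the phosphotyrosine of histone H2AX. It had 2.95, 2.69 and 2.66 FPKM in knockout libraries, against 11.8, 12.4 and 13.2 FPKM in wild-type libraries. The highest knockout value lay far below the lowest wild-type value. Rad18, the ubiquitin ligase that starts lesion bypass, had 5.28, 4.84 and 5.0 FPKM in knockout libraries, against 8.92, 9.61 and 8.67 FPKM in wild-type libraries. Both checkpoint kinases, Chek1 and Chek2, fell (-0.35 and -0.34). Topbp1 (-0.23) and Clspn (-0.22), whose proteins act upstream of CHK1, fell as well, and Rad9a of the checkpoint clamp rose (0.30).

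Heterochromatin and H3K9 methylation genes were mostly lower, with 10 of 14 tested members down and 1 up (median -0.21). Uhrf1, which reads H3K9 methylation and brings DNMT1 to replicated DNA, had 31, 31.1 and 31.4 FPKM in knockout libraries, against 49.4, 48.3 and 47.7 FPKM in wild-type libraries. The remodeller Hells had 14.8, 14.4 and 14.5 FPKM in knockout libraries, against 21.1, 22.8 and 22.3 FPKM in wild-type libraries. Neither overlapped between the groups. Cbx5, the HP1 alpha protein that binds methylated H3K9, fell by 0.37, and the maintenance methyltransferase Dnmt1 by 0.23. The H3K9 methyltransferase gene Suv39h1 fell to 7.82 ± 0.22 FPKM in knockout cells, against 8.58 ± 0.0552 FPKM in wild-type cells. The 1 gene that rose was Trim28 (0.27), the corepressor that recruits SETDB1 to chromatin. Setdb1 itself was not analysed here. The H3K9 demethylase genes of the list that were called, Kdm4b (-0.25), Kdm7a (-0.27), Phf2 (-0.22) and Jmjd1c (-0.20), fell as well. Without the 4 libraries with blood transcripts, which leaves 1 library in each arm, the median of the list was -0.20. The calls of Suv39h1 and Kdm7a were lost in that fit. Polycomb, Trithorax and remodeller genes were divided, with 14 up and 13 down of 37, and without the 4 libraries with blood transcripts 3 rose and 9 fell. The remodeller Chd1 fell (-0.64). H2afy2, a macroH2A histone variant, was among the large falls, at 1.49, 1.78 and 2.28 FPKM in knockout libraries, against 5.5, 6.12 and 5.93 FPKM in wild-type libraries.

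**Figure D3:**
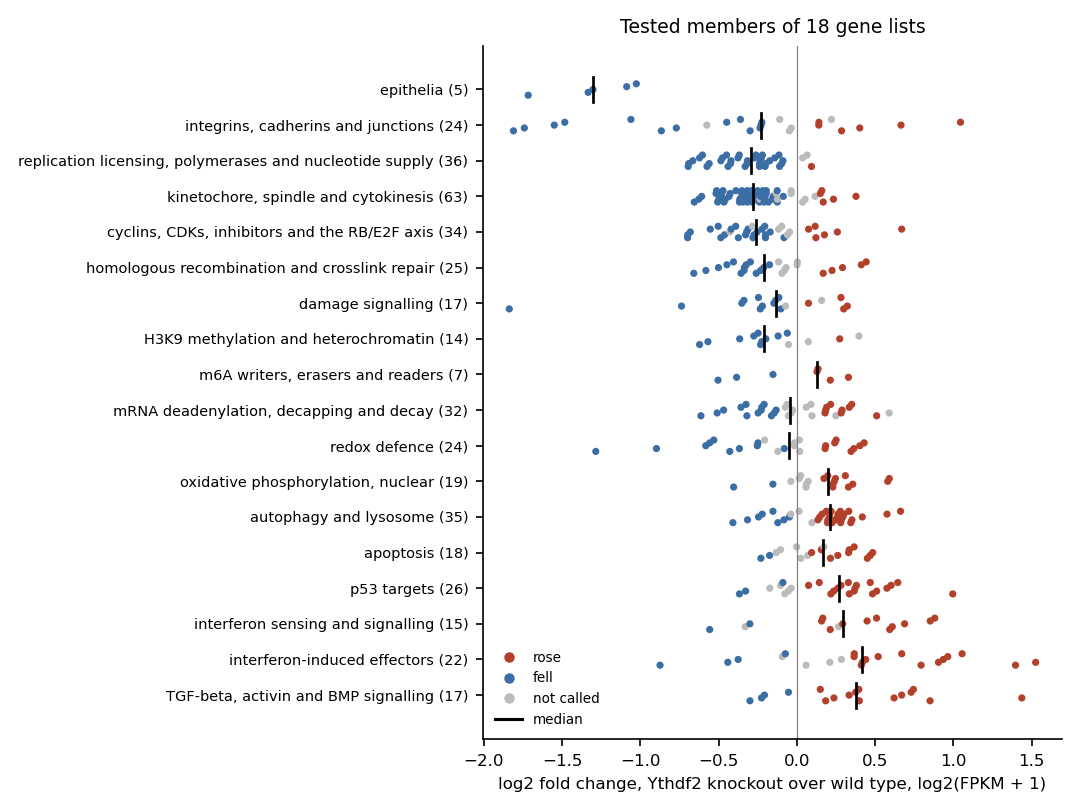
Log2 fold change, knockout over wild type, of the tested members of 18 gene lists. Each point is a gene, red where it rose, blue where it fell and grey where it was not called, the black bar is the median and the number of tested members is in parentheses. The medians run from -1.30 for epithelial markers to 0.41 for interferon-induced effectors, around -0.01 for all tested genes.

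The other m6A genes changed by less than Ythdf2 on the log2 scale. Of 7 tested genes, 4 rose and 3 fell, Ythdf2 among them, and without the 4 libraries with blood transcripts 1 rose and 1 fell. Writer subunits were among the rises. The catalytic Mettl3 had 3.11, 3.23 and 3.51 FPKM in knockout libraries, against 2.84, 2.45 and 2.79 FPKM in wild-type libraries. The scaffold Virma had 17.8, 17.2 and 17.5 FPKM in knockout libraries, against 13.7, 13.5 and 13.9 FPKM in wild-type libraries, and Zc3h13 and Rbm15b had log2 fold changes of 0.13 and 0.13. Wtap, which anchors the writer complex, fell (-0.39), with 10.01, 7.9 and 8.3 FPKM in knockout libraries, against 10.8, 14 and 10.5 FPKM in wild-type libraries. Leaving out wild-type library 2 ended the call of Mettl3 (adjusted p = 0.0518), and leaving out knockout library 2 or wild-type library 2 ended that of Wtap (adjusted p = 0.058 and 0.0612, with a log2 fold change of -0.26 in the second case). The m6A-binding protein gene Fmr1 fell (-0.15), a call that was lost without the 4 libraries with blood transcripts (adjusted p = 0.441) and with the GC trend removed (adjusted p = 0.17). The call of Rbm15b was lost in the same 2 fits (adjusted p = 0.079 and 0.0937). The paralogs Ythdf1 and Ythdf3 were not analysed here.

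The decay machinery that YTHDF2 works through had 9 rises and 13 falls among 32 tested genes (median -0.04), and 5 rises and 11 falls without the 4 libraries with blood transcripts. The CCR4-NOT nucleases Cnot6 and Cnot7 fell: Cnot6 had 26, 26.6 and 26.2 FPKM in knockout libraries, against 33.3, 33.4 and 32.8 FPKM in wild-type libraries, while Cnot7 had 10.6 ± 0.733 FPKM in knockout cells, against 12.4 ± 0.567 FPKM in wild-type cells. The call of Cnot7 was lost without the 4 libraries with blood transcripts (adjusted p = 0.46) and with the GC trend removed (adjusted p = 0.131). Genes that bring CCR4-NOT to its targets went both ways. Btg2 had 86.9, 85.4 and 88.7 FPKM in knockout libraries, against 62.1, 59.9 and 60.4 FPKM in wild-type libraries, and Zfp36l1 rose (0.29). Zfp36l2 (-0.36), Tob1 (-0.25) and the AU-rich element binder Khsrp (-0.51) fell. The exosome nuclease Dis3 fell (-0.47) and the related Dis3l2 rose (0.35). The 5′ exonuclease Xrn1 and the decapping enzyme Dcp2 had log2 fold changes of -0.06 and 0.06 and did not pass.

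Most genes of the interferon pathway were higher, among sensors, transcription factors and effectors. Of 15 RNA sensing and signalling genes, 11 rose and 2 fell (median 0.29), and of 22 effectors, 14 rose and 4 fell (median 0.41), beside 37.8% of all tested genes that rose. Without the 4 libraries with blood transcripts, 8 and 12 rose and 2 and 3 fell. The cytosolic sensors of double-stranded RNA rose, Ifih1 (MDA5) with 4.54, 4.46 and 4.49 FPKM in knockout libraries, against 2.77, 2.63 and 2.53 FPKM in wild-type libraries, while Ddx58 (RIG-I) had 13.2, 13.1 and 14.3 FPKM in knockout libraries, against 8.26, 8.58 and 8.72 FPKM in wild-type libraries. The transcription factors that act below them, Irf3 (0.51) and Irf7 (0.88), rose. Stat2 and Irf9, subunits of ISGF3, the factor that interferon receptors activate, rose. Stat2 had 6.29, 6.1 and 6.42 FPKM in knockout libraries, against 4.19, 4.19 and 4.62 FPKM in wild-type libraries. Irf9 had 5.64, 5.89 and 5.36 FPKM in knockout libraries, against 2.83, 2.5 and 2.7 FPKM in wild-type libraries. Neither overlapped between the groups.

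Among effectors, the oligoadenylate synthetases make the messenger that activates RNase L. Oas1a had 7.92, 8.13 and 6.35 FPKM in knockout libraries, against 2.23, 1.79 and 1.79 FPKM in wild-type libraries, with knockout library 3 the lowest of the knockout. Oas1g had 4.23, 4.23 and 4.15 FPKM in knockout libraries, against 0.936, 0.97 and 1.02 FPKM in wild-type libraries. With wild-type library 3 alone of its group at 1 FPKM, Oas1g could pass the filter only with libraries of the YC5 line. Oas1b, Oas1c, Oas3 and Oasl2 rose by less (0.67, 0.37, 0.37 and 0.79). The Oas1 genes are close paralogs, and how shared reads were divided among them was not stated. Ifit1, which binds viral RNA caps, had 6.0, 5.79 and 5.65 FPKM in knockout libraries, against 2.12, 2.87 and 2.53 FPKM in wild-type libraries. The immunity GTPase Irgm1 had 10.8, 10.2 and 10.4 FPKM in knockout libraries, against 4.64, 4.52 and 4.42 FPKM in wild-type libraries. Trim30a had 1.69, 1.36 and 1.27 FPKM in knockout libraries, against 0.288, 0.262 and 0.267 FPKM in wild-type libraries, below 1 FPKM in all wild-type libraries. Trim30a could thus pass the filter only with libraries of the YC5 line, where it is high. The falls included the immunoproteasome subunit Psmb8, at 1.46, 1.45 and 1.26 FPKM in knockout libraries, against 3.85, 3.11 and 3.2 FPKM in wild-type libraries, the exonuclease Isg20 (-0.44), the chemokine Cxcl10 (-0.37), and the signalling genes Irf5 (-0.56) and Jak2 (-0.30). The MHC class I genes H2-K1 and H2-D1 had log2 fold changes of -0.09 and 0.21 and did not pass. Levels in OE-CTR cells lay near the knockout, with Oas1a at 7.71 ± 0.152 FPKM, Ifit1 at 5.23 ± 0.186 FPKM and Irgm1 at 9.8 ± 0.24 FPKM.

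**Figure D4:**
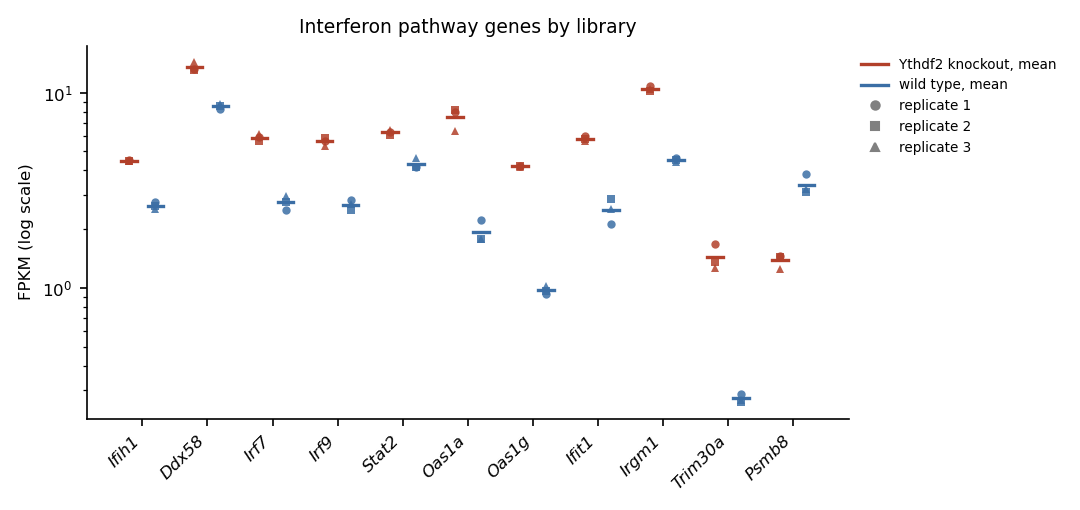
FPKM on a log axis of 11 interferon pathway genes in the 3 knockout (left of each pair) and 3 wild-type libraries (right), with symbols for the replicate and a bar for the mean. The knockout libraries lie above the wild-type libraries for the first 10 genes, with the widest gap for Trim30a (1.44 ± 0.218 against 0.272 ± 0.0133 FPKM), and below them for Psmb8 (1.39 ± 0.113 against 3.39 ± 0.404 FPKM). The choice of genes favoured groups that do not overlap, so this separation is not a separate result.

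ISGF3 binds the interferon-stimulated response element, and promoter sequences are shown for the 3 genes with the largest rises and a match to its core, GAAANNGAAA on either strand. They were Oas1a (chr5:120907526-120907675, minus strand), Oas1g (chr5:120887614-120887763, minus strand) and Irgm1 (chr11:48871421-48871570, minus strand), given as above for the 150 bases before the start, with the matches in capitals.
Oas1a: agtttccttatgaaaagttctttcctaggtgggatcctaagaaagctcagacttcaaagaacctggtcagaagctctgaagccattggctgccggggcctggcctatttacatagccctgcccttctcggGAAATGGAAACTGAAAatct
Oas1g: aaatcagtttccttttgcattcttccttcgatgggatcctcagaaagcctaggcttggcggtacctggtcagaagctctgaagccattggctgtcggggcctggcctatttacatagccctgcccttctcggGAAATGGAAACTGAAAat
Irgm1: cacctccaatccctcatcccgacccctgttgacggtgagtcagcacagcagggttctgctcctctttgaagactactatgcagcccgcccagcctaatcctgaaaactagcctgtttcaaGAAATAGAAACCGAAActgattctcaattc
Each stretch holds 2 overlapping matches, with 4 bases between them and the start in Oas1a, 2 in Oas1g and 14 in Irgm1. Oas1a and Oas1g carry the same run of letters there, as close paralogs. In the window of 250 bases before to 50 after the start, 11 of the 21 interferon genes that rose and have a window held the core (52.4%), against 4.4% of tested genes and 3.4% of all windows. They include both RNA sensors and Stat2. Oas1g and Trim30a are also among them, and these could pass the filter only with libraries of the YC5 line, where they are high. Of the 6 interferon genes that fell, 1 held it (Cxcl10).

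Targets of p53 were mostly higher, with 18 of 26 up and 3 down (median 0.27), and without the 4 libraries with blood transcripts 16 up and 4 down. Eda2r, a receptor of the TNF receptor family, had 2.97, 3.36 and 3.18 FPKM in knockout libraries, against 1.06, 1.14 and 1.07 FPKM in wild-type libraries. Ccng1, which encodes cyclin G1, had 109, 110.0 and 111 FPKM in knockout libraries, against 71.9, 70.8 and 73.7 FPKM in wild-type libraries. The ubiquitin ligase gene Mdm2 (0.28), which limits p53, the sugar reductase Dcxr (0.64), the nuclease Aen (0.48) and Sesn2 (0.37) rose. Those that fell were the kinases Plk2 (-0.37) and Plk3 (-0.09) and the receptor Epha2 (-0.33). The call of Plk3 was lost without knockout library 1 (log2 fold change -0.05) or any 1 wild-type library (adjusted p = 0.0631 to 0.175 over these). Gadd45a, a growth arrest gene, had 66.3, 63.3 and 65.4 FPKM in knockout libraries, against 69.7, 66.9 and 66.1 FPKM in wild-type libraries, and did not pass. In the wider apoptosis list, 10 of 18 rose and 2 fell, and without the 4 libraries with blood transcripts 7 rose and the calls of the falls were lost. The pro-apoptotic Bax (0.47), Bbc3 (0.37) and Fadd (0.48) and the death receptor Fas (0.33) rose, and so did the protective Bcl2l1 (0.45) and Mcl1 (0.21). Cflar, an inhibitor of caspase activation at death receptors, fell (-0.23).

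TGF-beta family signalling had 13 rises and 4 falls among 17 tested genes (median 0.38), and without the 4 libraries with blood transcripts 10 rose and 1 fell. Among ligands Inhbb, the beta B subunit of activin and inhibin, had 10.8, 10.4 and 10.5 FPKM in knockout libraries, against 3.23, 3.34 and 3.23 FPKM in wild-type libraries. The beta A subunit gene Inhba fell (-0.30), and Tgfb1 rose (0.40) while Tgfb2 fell (-0.23). The calls of Inhba and Tgfb2 were lost without the 4 libraries with blood transcripts (adjusted p = 0.132 and 0.0699). Of the receptors Tgfbr1 and Bmpr2 rose (0.33 and 0.15). Genes known as direct targets of BMP signalling rose. Id1 had 226, 244 and 232 FPKM in knockout libraries, against 144, 144 and 135 FPKM in wild-type libraries, and Id3 had 79, 85.1 and 76 FPKM in knockout libraries, against 48.9, 46.4 and 46.7 FPKM in wild-type libraries. ID proteins block bHLH factors. Smad6, an inhibitor of the pathway, had 5.53, 5.6 and 5.46 FPKM in knockout libraries, against 2.93, 2.69 and 2.28 FPKM in wild-type libraries. Atoh8, which was not on the list and is named for its size of change, had 5.65, 6.08 and 6.21 FPKM in knockout libraries, against 2.6, 2.64 and 2.85 FPKM in wild-type libraries. The BMP-responsive transducer Smad9 rose (0.67) and the activin and TGF-beta transducer Smad3 fell (-0.21). The follistatin-like gene Fstl1 rose (0.62).

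Immediate early and MAPK feedback genes moved both ways, with 10 rises and 8 falls among 23. Egr1, a zinc finger factor induced within minutes by growth factors or stress, had 32.9, 33.2 and 32.8 FPKM in knockout libraries, against 10.4, 9.51 and 10.3 FPKM in wild-type libraries, the largest rise among the called genes. Its mean was 9.08 ± 0.477 FPKM in OE-CTR cells and 8.93 ± 0.558 FPKM in Setdb1-overexpressing cells, both below the wild-type mean of 10.1 ± 0.501 FPKM. Fos had 7.45, 7.68 and 6.88 FPKM in knockout libraries, against 3.64, 3.26 and 3.88 FPKM in wild-type libraries, and 2.25 ± 0.472 FPKM in OE-CTR cells. Jun (0.60), Junb (0.39) and the receptor kinase inhibitor Spry2 (0.94) rose. The Fos family member Fosl1, in contrast, had 3.88, 4.19 and 3.96 FPKM in knockout libraries, against 10.3, 7.82 and 9.71 FPKM in wild-type libraries, and it stayed low in OE-CTR cells (3.87 ± 0.631 FPKM). The nuclear receptor Nr4a1 (-0.80) fell, and so did Dusp6 (-0.43) and Etv5 (-0.47), known as readouts of ERK signalling.

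**Figure D5:**
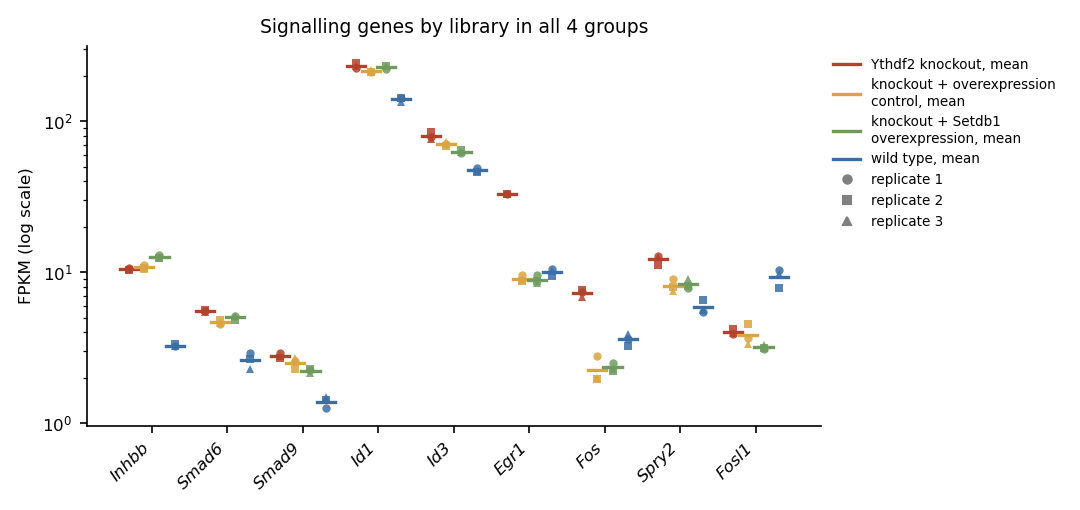
FPKM on a log axis of 9 signalling genes in the 3 libraries of each group, from left to right unmodified knockout, OE-CTR, Setdb1 overexpression and wild type, with symbols for the replicate and a bar for the mean. Inhbb, Smad6, Smad9, Id1 and Id3 are above wild type in all 3 groups of the YC5 line, while Egr1 and Fos are above wild type in the unmodified knockout (Egr1 33 ± 0.228 against 10.1 ± 0.501 FPKM) and not in the other groups of that line.

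Of 20 growth factor and receptor genes, 7 rose and 12 fell. Of the testis niche factors, Gdnf, the Sertoli cell ligand that maintains spermatogonial stem cells, had 14.9, 14.9 and 14.3 FPKM in knockout libraries, against 24.2, 24.9 and 23.2 FPKM in wild-type libraries. Kitl, the ligand of the KIT receptor, had 3.84, 3.77 and 4.58 FPKM in knockout libraries, against 1.91, 2.14 and 2.27 FPKM in wild-type libraries. The receptors Fgfr1 (-0.33), Nrp2 (-0.41) and Epha4 (-0.30) fell and Axl (0.36) and Nrp1 (0.42) rose. Tek, the angiopoietin receptor of endothelium, had 2.24, 1.95 and 1.68 FPKM in knockout libraries, against 0.442, 0.407 and 0.395 FPKM in wild-type libraries. Below 1 FPKM in all wild-type libraries, it could pass the filter only with libraries of the YC5 line, where it is high. The other endothelial markers in the table, Pecam1 and Vwf, were below the filter. In Wnt signalling 9 of 15 rose and 2 fell, with the ligand Wnt9a higher (0.64) and the ligand Wnt10b and the scaffold Axin1 lower (-0.45 and -0.37). Of the Hippo genes, 8 of 13 rose, including the YAP targets Ccn1 (0.41) and Ccn2 (0.41) and the upstream regulator Nf2 (0.39), and 3 fell, including the YAP partner Tead4 (-0.58). Ankrd1, also known as a YAP target, fell (-0.49), so the YAP targets did not all move the same way.

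Of 35 autophagy and lysosome genes, 24 were higher and 8 lower (median 0.21), and without the 4 libraries with blood transcripts 16 higher and 3 lower. The submitters' own autophagy term had 46 of 81 tested genes higher and 19 lower. Vps18, a subunit of the tethering complexes that deliver cargo to lysosomes, had 22.4, 22.5 and 22.4 FPKM in knockout libraries, against 14.1, 13.3 and 14.1 FPKM in wild-type libraries. The initiating kinase genes Ulk1 and Ulk2 (0.23 and 0.30), the conjugation genes Atg7 and Atg12 (0.29 and 0.28), the membrane markers Map1lc3a and Map1lc3b (0.34 and 0.42) and the lysosomal membrane protein genes Lamp1 and Lamp2 (0.26 and 0.19) rose. Tecpr1, which tethers autophagosomes to lysosomes, and the LC3 family member Gabarapl1 fell (-0.32 and -0.22).

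Of 7 tested genes of arginine, nitric oxide and polyamine metabolism, 5 fell and 2 rose (median -0.32). Ass1, which makes argininosuccinate in arginine synthesis, had 43.1, 46 and 44 FPKM in knockout libraries, against 13.5, 15.2 and 16.2 FPKM in wild-type libraries. Nos2, which consumes arginine to make nitric oxide, had 8.01, 8.45 and 8.05 FPKM in knockout libraries, against 15.6, 15.2 and 15.3 FPKM in wild-type libraries. Proline synthesis genes Aldh18a1 and Pycr1 fell (-0.42 and -0.27). Of the fatty acid and lipid genes 8 of 14 fell, led by the oxidised lipoprotein receptor Olr1 (-1.78) and by the retinol carrier Rbp4 at 23.7, 29.4 and 28 FPKM in knockout libraries, against 91.3, 87.2 and 93.7 FPKM in wild-type libraries, and the prostaglandin synthases Ptgs1 and Ptgs2 fell (-0.39 and -0.50). In sterol synthesis 7 of 14 rose, by at most 0.41 (Dhcr7), and 4 without the 4 libraries with blood transcripts. Redox genes were divided 8 up and 10 down of 24. Txnip, the thioredoxin inhibitor, had 72.4, 57 and 53.7 FPKM in knockout libraries, against 152, 139 and 156 FPKM in wild-type libraries. The NRF2 targets Nqo1 (-0.56) and Txnrd1 (-0.58) fell and Srxn1 (0.25) rose, as did catalase, Cat (0.36). In the stress responses the proapoptotic factor Ddit3 (CHOP) had 70.8, 69.9 and 69.1 FPKM in knockout libraries, against 107, 104 and 107 FPKM in wild-type libraries, below wild type in each. The mitochondrial folate enzyme Aldh1l2 had 16.3, 16.8 and 16.6 FPKM in knockout libraries, against 31.5, 31.8 and 31.7 FPKM in wild-type libraries, while Atf5 rose (0.53).

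Of 19 nuclear genes of the respiratory chain, 11 rose and 2 fell (median 0.20). Of 6 mitochondrially encoded transcripts, 3 rose and 2 fell. The complex I subunit transcript mt-Nd3 had 1557, 1238 and 1393 FPKM in knockout libraries, against 701, 689 and 674 FPKM in wild-type libraries. The mt-Nd1 transcript had 4995, 4720.0 and 5208 FPKM in knockout libraries, against 3767, 3880.3 and 3892 FPKM in wild-type libraries, and its call was lost under quantile normalization (adjusted p = 1), where 2 of these transcripts rose and 2 fell. The complex IV subunit transcript mt-Co1, with the largest fall in FPKM of all called genes, had 6026, 5736 and 6138 FPKM in knockout libraries, against 7839.6, 8016 and 7843 FPKM in wild-type libraries, and mt-Nd6 fell (-0.33). The mt-Nd6 gene lies on the strand opposite the others, and whether counting used strand was not stated. The mt-Atp8 transcript had a log2 fold change of 0.30 and did not pass. Large gains in FPKM among nuclear genes included the small heat shock protein Cryab, with 257 ± 5.61 FPKM in knockout cells, against 153 ± 3.58 FPKM in wild-type cells. Large losses in FPKM were in the mesothelial surface protein Msln, with 192 ± 1.29 FPKM in knockout cells, against 298 ± 5.29 FPKM in wild-type cells, and the membrane linker ezrin, Ezr, with 278 ± 3.84 FPKM, against 376 ± 4.3 FPKM.

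RNA processing and translation lists held changes in both directions. Of 45 splicing factors, 19 fell and 11 rose (median -0.09), and 12 fell and 12 rose with the GC trend removed, while 12 fell and 7 rose without the 4 libraries with blood transcripts. The muscleblind family gene Mbnl3, a regulator of alternative splicing, had 1.5, 1.6 and 1.54 FPKM in knockout libraries, against 5.43, 5.06 and 5.59 FPKM in wild-type libraries, the deepest fall of the list. Hnrnpa1 (-0.52) and the scaffold Srrm2 (-0.48) fell, and the SR proteins Srsf5 and Srsf6 rose (0.29 and 0.25). Of 21 ribosomal protein and ribosome assembly genes, 11 rose and 7 fell, with Rps20 (0.51) and Rpl10a (-0.53) at the ends. Both changes were uneven. The log2 differences of Rps20 and Rpl10a were 0.71 and -0.69 between the libraries with blood transcripts, and 0.105 and -0.21 without those 4 libraries. Many ribosomal protein genes have near-identical pseudogenes, and how the counting treated these was not stated. Among Notch genes the receptor Notch3 (0.57) and the ligands Jag1 and Jag2 (0.30 and 0.27) rose. The call of Jag2 was lost with the GC trend removed (adjusted p = 0.259). The ligand Dll1, at 1 FPKM only in wild type, fell to 0.704 ± 0.103 FPKM in knockout cells, against 1.7 ± 0.0687 FPKM in wild-type cells.

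The labelled cell type was checked against germ cell markers. Of the 26 spermatogonial markers listed, 5 were in the table, and they summed to 77.7, 77.4 and 75.2 FPKM in knockout libraries, against 119, 118 and 118 FPKM in wild-type libraries. Cd9, a surface tetraspanin used to enrich spermatogonial stem cells, fell (-0.77), as did the GDNF-responsive factors Bcl6b (-0.51) and Etv5 (-0.47) and the integrin chain Itga6 (-0.36), and Foxo1 rose (0.29). These 5 are also expressed outside the germ line, and the germ cell-specific markers of the list, such as Ddx4, Dazl and Zbtb16, were not analysed here. Of the Sertoli markers 6 were in the table, and 3 rose and 3 fell. The secreted chaperone Clu had 65.3, 65.3 and 81.2 FPKM in knockout libraries, against 144, 145 and 146 FPKM in wild-type libraries. Sox9, which reached 1 FPKM only in wild type and could pass the filter only by being high there, fell (-0.86). Gata4 rose (0.30). The 6 fibroblast markers in the table summed to 464, 476 and 459 FPKM in knockout libraries, against 329, 349 and 328 FPKM in wild-type libraries. Of these, 4 were tested, Fn1, Thbs1 and Fstl1 rose and Pdgfra fell (-0.32), and the other 2, Pdgfrb and Postn, were below 1 FPKM in all 6 libraries.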

How the data were processed

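RNA from 12 libraries of mouse GC1 cells was sequenced, and the authors deposited 1 table of FPKM per gene and library. The submitters' processing notes name cutadapt, HISAT2, StringTie, edgeR and DESeq2, with no version, and the genome build was not given in the sources used here. The table holds 2281 genes, all marked significant by the submitters, with deposited p-values of at most 0.0500 and q-values of at most 0.113 for a comparison its header does not name, and these were not used further. Zeros are written as 0.0001. Preselection can raise the share of genes that differ, and an FPKM depends on every other gene of its library. Neither fragment counts nor depth can be read from FPKM. The 12 columns summed to 75955 to 81924 FPKM over the listed genes, and 2007 to 2024 of them reached 1 FPKM.

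Genes with at least 1 FPKM in at least 3 of 12 libraries were fitted with limma 3.58.1 in R 4.3.3 (log2(FPKM + 1), intensity-dependent prior, 1 mean for each of 4 groups, two-sided), after a test on simulated data. Adjusted p-values are Benjamini-Hochberg over the 2063 tested genes, with 0.05 as the limit for a call. Fold changes are knockout over wild type on this scale, which understates the change of low genes. Values with ± are SDs over 3 libraries. Groups follow the sample labels. The genes named are those with the largest changes in either direction whose groups do not overlap, leading members of each gene list and members whose role the text describes. The comparison, the genes and the lists were chosen with earlier results of these data known. Promoter windows are RefSeq (GRCm38.p6), matched by symbol, and 1652 tested genes have one. For GC content and GGACT the longest protein-coding GENCODE transcript of each gene was used, matched by gene identifier, and 2062 tested genes have one. Tables were handled with pandas 2.3.3 and figures drawn with matplotlib 3.10.9 in Python 3.11.15. Alternatives covered the pseudocount, the filter, scaling, the libraries in the fit, blood transcripts, GC content and the replicate number. Some genes of the lists are not reported here by name.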

Additional observations from a re-analysis of the deposited data

How the results depend on the processing

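Under every setting run, the number of genes that rose and the number that fell stayed within 1.5 times the counts of 779 and 815. Leaving out 1 knockout or wild-type library at a time gave 742 to 760 genes that rose and 780 to 792 that fell, and 1425 called genes were called in all 6 omissions. Without the 4 libraries with blood transcripts, 533 genes rose and 594 fell, of which 516 and 573 were among those of the full set. That fit has 1 library in each arm, assumed to vary like the libraries of the other groups. The 3 same-numbered pairs of knockout and wild-type libraries deviated from their group means with correlations of -0.70, 0.413 and -0.496, so the replicate numbers were not taken to pair them, and a fit with the replicate number as a block gave 778 and 808. Removing each library's trend with transcript GC content, an alternative chosen after seeing the data, gave 777 that rose (702 shared) and 755 that fell (715 shared), and the count of mitotic genes that fell moved to 44 of 63. In the damage signalling list 4 genes fell and 3 rose without the 4 libraries, against 11 and 4 in the full set, and in the Polycomb list 9 fell and 3 rose, against 13 and 14. Of the 286 tested genes named in the text, Ankrd1 aside, 273 were called and 226 of these kept the call under every setting. No direction turned for a called gene among them. Most calls that were lost went in the fit without the 4 libraries with blood transcripts, among them those of Ccnd3, Xrcc6 and Suv39h1. Depth is unknown, so no counting interval can be given, and genes near 1 FPKM rest on few fragments.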

Other observations

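Genes of the circadian clock, chosen as a group after their values were seen, were described as well. Of 20 clock genes listed, 13 were tested, and all 13 were called by limma with groups that did not overlap, 7 higher and 6 lower in the knockout. Of all 2063 tested genes 77.3% were called, and 1648 (79.9%) had groups that did not overlap. The activator Arntl (BMAL1) had 2.69, 2.62 and 2.72 FPKM in knockout libraries, against 5.09, 5.03 and 5.19 FPKM in wild-type libraries, and its partner Clock had 9.23, 9.75 and 9.12 FPKM in knockout libraries, against 13.2, 13.2 and 11.6 FPKM in wild-type libraries. The repressor Cry1 had 1.4, 1.67 and 1.87 FPKM in knockout libraries, against 3.94, 3.7 and 4.21 FPKM in wild-type libraries. Nr1d1 (REV-ERB alpha), which represses Arntl, had 22.5, 21.7 and 21.8 FPKM in knockout libraries, against 13.2, 12.4 and 12.6 FPKM in wild-type libraries, and Nr1d2 had 15.6, 15.1 and 15.3 FPKM in knockout libraries, against 11.3, 11 and 11.3 FPKM in wild-type libraries. The clock output factors Dbp and Tef rose (0.85 and 0.84), as did Per3 (0.54), while Nfil3, which competes with them for the same sites, fell (-0.57). Bhlhe40 and Rora rose by little (0.12 and 0.13). The call of Per1 (-0.13) was lost in all 6 omissions of 1 library. All libraries carry 1 time label, 24 h, and the clock hour at which each culture was collected was not given in the sources used here, so group and collection hour cannot be told apart.

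Counts of GGACT, the most frequent letters around m6A, in the longest transcript of each gene had a Spearman rho of 0.03 with the log2 fold change over 2062 genes. These genes differ in transcript length and base composition, and the count was adjusted for neither. The 137 genes with no GGACT had a median log2 fold change of -0.06 and the 577 genes with 6 or more had 0.03. The m6A state of these transcripts was not measured here.

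In the submitters' annotation column, the term apoptotic process stands on 257 genes, and these are the same 257 genes that carry the term for DNA-binding transcription factor activity. Of the 257, 2 hold the Gene Ontology identifier of apoptotic process in the deposited Gene Ontology column, while 51 genes of the table do. The term was therefore not used to count apoptosis genes.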
